A study of Mus musculus with 24 samples.

Results

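The RNA of epigonadal adipose tissue (GAT) was compared with that of subcutaneous adipose tissue (SAT) in mice that lack Azin2 (Azin2-/-). The comparison used 7 of the 24 libraries of the study, 4 from GAT and 3 from SAT, chosen by the genotype, depot and diet in their labels. All 7 came from whole fat of male Azin2-/- mice on the C57BL/6J background that ate a high-fat diet, with 60% of the energy from fat, for 8 weeks. Both depots therefore share the knockout, the diet and the sex, and they differ in the depot alone as far as the labels state. The same experiment holds wild-type littermates on the same diet (4 GAT and 5 SAT libraries, 16 libraries in all with the Azin2-/- ones), which are used here only to set the depot difference beside that of the other genotype. Libraries are named by depot and by the mark in their titles, and values per library follow the order GAT L, LR, no and R, then SAT 2R, LR and no. The marks LR and no occur in both depots, but the labels do not state whether a mark names an animal. Nothing beyond the marks says that the libraries of a group came from separate mice, so p-values measure only the spread between these libraries. The labels also do not give which part of Azin2 was deleted or whether all cells carry the deletion.

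White fat stores triglyceride in adipocytes and also holds progenitors, vessels, nerves and leukocytes. Subcutaneous fat lies under the skin, is more prone to form thermogenic adipocytes, and is supplied by cutaneous nerves. Epigonadal fat lies within the abdomen, is covered by mesothelium, and is known for macrophage accumulation in obese mice. Adipocytes and progenitors of each depot keep transcription factors of their developmental origin, among them the HOX factors that mark position along the body axis. Azin2 encodes an antizyme inhibitor, a protein related to ornithine decarboxylase that frees this first enzyme of polyamine synthesis from its antizyme.

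Total counts of the 7 libraries ranged from 31.96 to 44.79 megareads, and mean depth differed by 2.28 megareads between GAT and SAT (two-sided exact permutation test, p = 0.543, where 0.0286 is the smallest p that 4 against 3 libraries allow). SAT LR stood apart from the other libraries. Together, 16 skeletal muscle genes took up 36.95 to 47.61 CPM in the 4 GAT libraries and 71.77, 74740 and 46.53 CPM in SAT 2R, SAT LR and SAT no, where CPM is the share of a library in counts per megaread. The Pearson correlation of SAT LR with the other SAT libraries, over log2 CPM of all tested genes, was 0.938 and 0.944, while SAT 2R and SAT no correlated at 0.9865 and the GAT libraries at 0.977 to 0.992. The biological coefficient of variation was 0.182 within GAT, 0.388 within SAT and 0.172 within SAT without SAT LR. Results are given with all 7 libraries, many of them also without SAT LR, and the plot of list medians shows both for 42 lists. Defining genes of adipocytes were high in both depots: Adipoq had 2010, 1340, 1520 and 1290 normalised CPM (CPM scaled by TMM factors) in GAT and 2100, 1630 and 2250 in SAT. The 16 epididymis genes summed to at most 2.3 CPM in every GAT library and 3.41 CPM in SAT. Epcam, an epithelial gene named after its values were seen, had 347 counts in GAT L and at most 5 in each of the other 6 libraries.

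Azin2 itself (ENSMUSG00000028789, chr4:128930233-128962442) still gave reads in every library labelled Azin2-/-. It had 18.8, 12.1, 14.3 and 12.5 normalised CPM in Azin2-/- GAT and 11.6, 8.18 and 10.8 in Azin2-/- SAT. In wild-type libraries it had 22.7 to 25.7 normalised CPM in GAT and 16.4 to 25.5 in SAT, above every Azin2-/- library of the same depot. Within Azin2-/- every GAT value lay above every SAT value, and the log2 fold change of 0.50 (SE 0.196) did not pass the test (edgeR quasi-likelihood test, Benjamini-Hochberg adjusted p = 0.119). Counts over the whole gene do not show whether the deleted part was read.

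Of 16800 genes tested, 2549 were called between GAT and SAT at an adjusted p under 0.05, or 15.2%. Of these, 1534 (9.13%) were higher in GAT and 1015 (6.04%) were lower. These shares are the background for the list counts below, and a list near them differs little from all genes. The share of genes whose libraries did not overlap was 15.4% with every GAT library above every SAT library and 16.1% with every GAT library below. The median log2 fold change (GAT over SAT) of all genes was -0.03. The adjusted p was under 0.01 for 26 genes, and 36 genes (17 higher and 19 lower in GAT) were called for a fold beyond 2 by glmTreat. The number of calls depended on single libraries. Without GAT LR 36 genes were called, without SAT no 40, without GAT R 218, without GAT no 278, and without GAT L, SAT 2R and SAT LR 2950, 3414 and 2532. Without SAT LR the share higher in GAT was 7.25% and the share lower was 7.46%, and 1847 genes were called in the same direction with and without it. In all 7 fits that each left out 1 library, 27 genes were called, 12 higher and 15 lower in GAT.

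Transcription factors of body patterning separated the depots in both directions. Of 43 tested developmental transcription factors outside the Hox clusters, 9 were higher in GAT and 12 were lower, with a median log2 fold change of -0.28. Wt1 (ENSMUSG00000016458, chr2:105126529-105173616), a zinc finger factor of mesothelium and visceral fat progenitors, had 9.58, 7.89, 8.14 and 5.10 normalised CPM in GAT and 0.101, 0.0381 and 0.054 in SAT. The log2 fold change of Wt1 was 6.77 (SE 0.395, adjusted p = 0.00132). Tcf21 (ENSMUSG00000045680, chr10:22817281-22820174), a basic helix-loop-helix factor of visceral progenitors, had 5.06, 6.17, 4.70 and 5.36 normalised CPM in GAT. Its 2 reads in SAT, both in SAT LR, give a ratio of 304 (counting interval 83.8 to 2510, adjusted p = 0.00559). Wt1 and Tcf21 were called whichever library was left out. Bnc1, Gata5, Alx1 and Isl1, factors of epithelia and of heart, craniofacial or foregut development, were called higher in GAT and had 0 reads in SAT. Their levels in GAT were low, from 0.282 normalised CPM for Gata5 in GAT R to 4.38 for Bnc1 in GAT L. These 4 were named after their values were seen, and each call was lost without GAT LR or SAT no, and without GAT no, GAT R or both taken singly (adjusted p 0.0523 to 0.0753).

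In the other direction, Shox2 (ENSMUSG00000027833, chr3:66971727-66981771), a homeobox gene of limb development, had 1.34, 0.449, 0.977 and 0.890 normalised CPM in GAT, against 37.7, 48.4 and 40.5 in SAT. The fitted log2 fold change was -5.53 (SE 0.321, adjusted p = 0.00132). En1 (ENSMUSG00000058665, chr1:120602418-120607992), a homeobox gene of the dermal lineage, had 0.0787, 0.349, 0.136 and 0.195 normalised CPM in GAT and 3.81, 3.01 and 2.62 in SAT (log2 fold change -4.02, SE 0.429, adjusted p = 0.0106). The Shox2 and En1 calls held whichever library was left out. Tbx15, a T-box gene of subcutaneous fat and also of skeletal muscle, had 0.131, 0.0749, 0 and 0.109 normalised CPM in GAT and 17.7, 138 and 17.8 in SAT. SAT LR, the library with muscle transcripts, was the high one, and the log2 fold change was -9.43 with it and -7.73 without it. The part of muscle in that value was not tested. The adjusted p of Tbx15 was 0.0127 with all libraries and 0.0606 without GAT LR, the only library whose removal ended the call. Lhx8, a LIM homeobox gene, had at most 0.136 normalised CPM in GAT, against 14.8, 2.17 and 7.5 in SAT. Here SAT LR was the lowest of the SAT libraries, and the call (log2 fold change -6.31, adjusted p = 0.0106) was lost without GAT LR or SAT no (adjusted p 0.0519 and 0.0506). Among further factors named after their values were seen, Tbx5 (log2 fold change -4.17) and Twist2 (-1.54) were called lower in GAT. These calls too were lost without GAT LR, and that of Twist2 also without SAT no (adjusted p up to 0.0577). Without GAT LR the list counted 2 genes higher and 2 lower, without SAT no 2 and 4, without GAT no 4 and 7, and without GAT R 5 and 6.

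**Figure D1:**
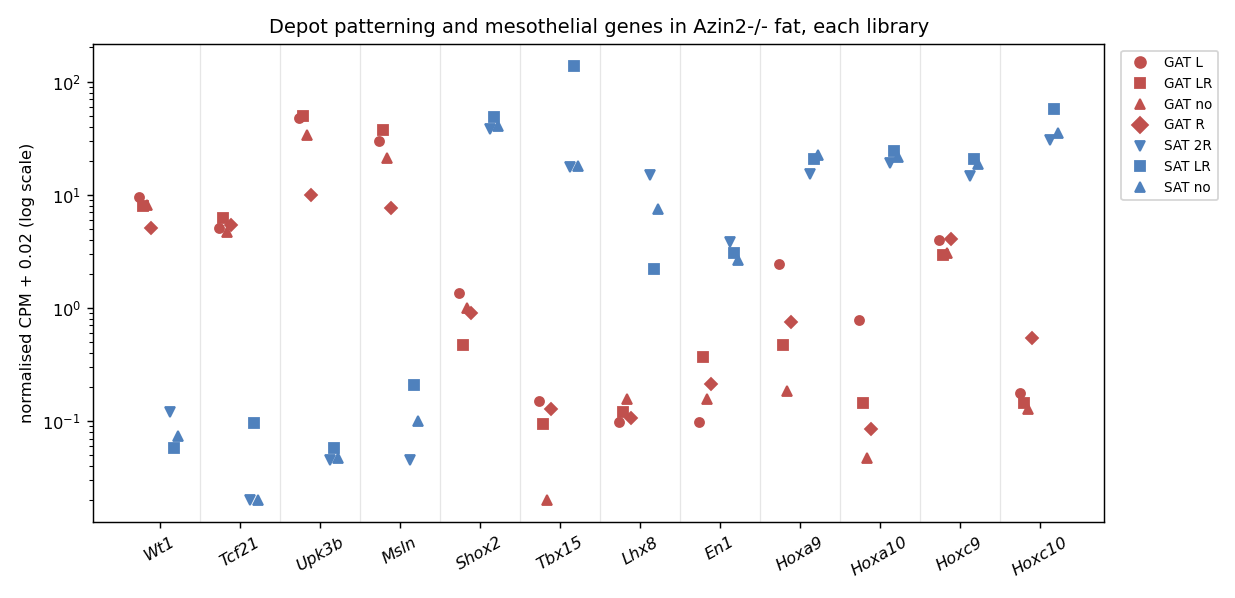
Normalised CPM, plus 0.02 on a log scale, of 12 depot patterning and mesothelial genes in each Azin2-/- library, with GAT left of SAT and 1 symbol per library. Wt1, Tcf21, Upk3b and Msln lay higher in every GAT library, and the other 8 genes lay higher in every SAT library, with SAT LR highest for Tbx15 and lowest for Lhx8.

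Promoter sequence is shown for the patterning genes that were called whichever library was left out and that have an entry in the RefSeq promoter table of the build GRCm38.p6. These are Tcf21, higher in GAT, and Shox2 and En1, lower in GAT. Of 26 called Hox and developmental factor genes, 13 were counted with a promoter there, 4 higher and 9 lower in GAT. A chromosome left out of this count may hold others. The letters CG, the dinucleotide at which mammalian DNA is methylated, are in capitals and read the same on both strands. Each stretch holds the 250 bases before the start of the RefSeq gene. The gene coordinates given above come from another annotation (GENCODE M21). By those coordinates Tcf21 and En1 start inside their stretches, so part of each lies within the gene. The stretch of Tcf21 (chr10:22820144-22820393, minus strand) holds 5 CG, and 55.6% of the 32851 promoters in the table hold at least as many. That of Shox2 (chr3:66981772-66982021, minus strand) holds 11 (35.6% of promoters), and that of En1 (chr1:120602237-120602486, plus strand) holds 19 (19.7%). The median over all promoters was 6 CG. It was 27.5 over the 4 promoters of genes higher in GAT, which ranged from 5 to 39, and 12.5 over the 10 promoters of the 9 genes lower in GAT, which ranged from 3 to 23. No methylation was measured, and these counts describe the sequence only.
Tcf21: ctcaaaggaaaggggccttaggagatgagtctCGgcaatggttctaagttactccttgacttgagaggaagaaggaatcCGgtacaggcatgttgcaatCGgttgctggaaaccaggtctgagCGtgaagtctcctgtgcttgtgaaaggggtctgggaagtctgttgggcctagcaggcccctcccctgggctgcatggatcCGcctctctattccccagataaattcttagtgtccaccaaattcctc
Shox2: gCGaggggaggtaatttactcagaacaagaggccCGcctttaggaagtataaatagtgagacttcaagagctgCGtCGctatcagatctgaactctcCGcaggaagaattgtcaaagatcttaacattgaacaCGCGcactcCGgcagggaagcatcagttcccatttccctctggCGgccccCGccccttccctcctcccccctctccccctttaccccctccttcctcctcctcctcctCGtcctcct
En1: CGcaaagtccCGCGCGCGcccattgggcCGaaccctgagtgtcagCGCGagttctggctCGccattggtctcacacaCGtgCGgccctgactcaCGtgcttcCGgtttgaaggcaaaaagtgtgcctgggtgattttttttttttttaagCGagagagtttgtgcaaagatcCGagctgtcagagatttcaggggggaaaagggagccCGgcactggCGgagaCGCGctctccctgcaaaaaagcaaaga

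With all 7 libraries, the Hox genes called were those of high paralogue groups. HOX factors are expressed along the body axis in the order of their genes, and paralogue groups with high numbers mark posterior positions. None of the 21 tested genes of paralogue groups 1 to 8 was called, and their log2 fold changes lay between -0.81 and 0.45 with a median of -0.06. Of the 6 tested genes of groups 9 and 10, 5 were lower in GAT, and the median was -3.36. Hoxc10 (ENSMUSG00000022484, chr15:102966796-102971893) had 0.157, 0.125, 0.109 and 0.521 normalised CPM in GAT and 30.5, 57.2 and 34.8 in SAT. Its log2 fold change was -7.41 (SE 0.532, adjusted p = 0.00294). Its neighbour Hoxc9 (ENSMUSG00000036139, chr15:102976439-102985099) had 3.99, 2.90, 3.01 and 4.04 normalised CPM in GAT and 14.6, 20.6 and 18.8 in SAT (log2 fold change -2.37, SE 0.184, adjusted p = 0.0041). In GAT, Hoxc10 reached at most 0.521 normalised CPM while Hoxc9 had at least 2.90, and both were called whichever library was left out. Hoxa10 had 0.761, 0.125, 0.0271 and 0.0651 normalised CPM in GAT and 18.9, 24.3 and 21.6 in SAT. GAT L was the highest of the GAT libraries, and the log2 fold change of -6.47 (SE 0.807, adjusted p = 0.0127) lost its call without GAT LR or SAT no (adjusted p up to 0.0577). Hoxa9 had 2.41, 0.449, 0.163 and 0.738 normalised CPM in GAT and 15.1, 20.7 and 22.4 in SAT, again with GAT L highest within GAT. The difference was -4.36 on the log2 scale (SE 0.741, adjusted p = 0.0189), and the call was lost without GAT LR, GAT R or SAT no (adjusted p up to 0.0795). Hoxd9, named after its values were seen, had a log2 fold change of -0.82 (adjusted p = 0.0229), lost without GAT LR, GAT no, GAT R or SAT no (adjusted p up to 0.0815). Hoxb9 was the member of these groups that was not called (log2 fold change 0.27, adjusted p = 0.754). Of 12 Hox genes that did not pass the filter on low counts, Hoxc11 had 0 counts in GAT, against 5, 81 and 7 in SAT 2R, LR and no. Hoxd10 had 3, 7, 4 and 5 counts in GAT and 20, 4 and 13 in SAT, with SAT LR within the range of GAT, and the other 10 had at most 5 in any library. SAT LR, the library with muscle transcripts, was the highest for Hoxc9, Hoxc10, Hoxa10 and Hoxc11. Without it the log2 fold changes of Hoxa9, Hoxa10, Hoxc9, Hoxc10 and Hoxd9 were -4.32, -6.39, -2.26, -7.07 and -0.9. The part of muscle in the SAT LR values was not tested. The number of Hox genes called, 5 with all libraries, was 2 without GAT LR or SAT no, 3 without GAT R and 8 without GAT L. Those 8 included Hoxa7, Hoxc5 and Hoxc6 of the lower groups (adjusted p 0.00848, 0.0172 and 0.0218), so the split by paralogue group did not hold without GAT L, and Hoxc5 was also called without SAT 2R (adjusted p = 0.0444). Transcripts of neighbouring Hox genes overlap, so counts of adjacent genes may not be fully separate. Whether the counting used strand is not stated in the labels or notes read here.

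**Figure D2:**
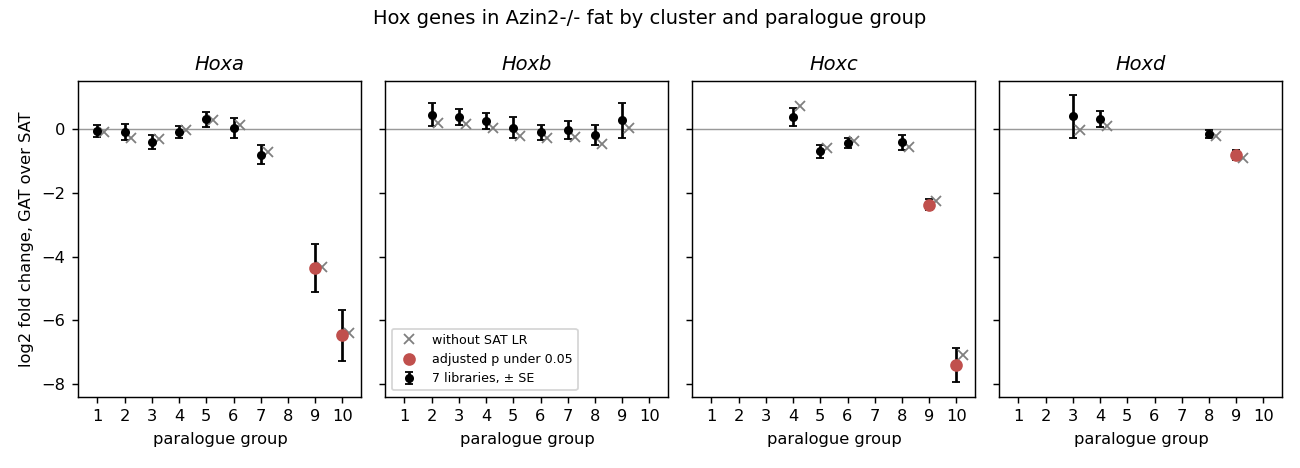
Log2 fold change (GAT over SAT, ± SE) of 27 Hox genes in Azin2-/- fat by paralogue group, 1 panel per cluster, with crosses for the fit without SAT LR and red points for adjusted p under 0.05. Groups 1 to 8 lay between -0.81 and 0.45, and Hoxa9, Hoxa10, Hoxc9, Hoxc10 and Hoxd9 lay below, down to -7.41.

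Mesothelial genes were the list with the highest median in GAT. Mesothelium is the epithelium that covers abdominal organs, and of its 19 tested genes 15 were higher in GAT and 1 was lower, with a median log2 fold change of 4.33 (4.61 without SAT LR). The 20 listed genes summed to 364, 363, 272 and 166 CPM in GAT and 113, 70.6 and 117 CPM in SAT, and GAT R was the lowest of the GAT libraries. In SAT, 3 of the 20 had 0 reads in every library. Upk3b (ENSMUSG00000042985, chr5:136038496-136046487), a uroplakin of mesothelial cells, had 47.8, 50.1, 33.7 and 10.0 normalised CPM in GAT. Its 3 SAT libraries held 3 reads in all, a ratio of 1300 with a counting interval of 445 to 6320 (adjusted p = 0.00617). Upk1b, another uroplakin, had 12.1, 11.2, 8.23 and 2.52 normalised CPM in GAT and 1 read in SAT, a ratio of 940 (counting interval 168 to 37200, adjusted p = 0.0101). Msln, which encodes the surface protein mesothelin, had 29.7, 37.2, 21.3 and 7.6 normalised CPM in GAT and 0.0252, 0.190 and 0.081 in SAT (log2 fold change 8.01, SE 0.83, adjusted p = 0.01). Muc16, the mucin that binds mesothelin, had 5.35, 5.82, 3.12 and 1.43 normalised CPM in GAT. It had 0 reads in SAT, so it was at least 145-fold higher in GAT against a floor of 3 counts over the group (adjusted p = 0.0164). In each of these 4 genes GAT R was the lowest GAT library and still lay above every SAT library. Nkain4 (log2 fold change 5.78, SE 0.582, adjusted p = 0.00999) and Pkhd1l1 (6.12, SE 0.675, adjusted p = 0.0106) also had GAT R lowest within GAT and no overlap with SAT. Cldn15, a claudin of epithelia that is also on the list, was lower in GAT, at 47.2, 46.0, 46.3 and 40.3 normalised CPM in GAT and 78.5, 59.9 and 96.6 in SAT. It made up most of the list sum in every SAT library. In whole tissue, more mesothelial cells and more RNA per cell cannot be told apart, and this holds for every cell type list that follows. Upk3b and Nkain4 were called whichever library was left out, Msln, Upk1b and Pkhd1l1 lost their call without SAT no (adjusted p 0.0577 to 0.0598), Muc16 without GAT LR, GAT no or SAT no (up to 0.0642), and Cldn15 without GAT LR, GAT no, GAT R or SAT no (up to 0.0795). The list count higher in GAT was 4 without SAT no, 7 without GAT LR, 9 without GAT no, and 14 or 15 without each of the others.

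Outside the lists, Col6a5 (ENSMUSG00000091345, chr9:105856078-105960643), a chain of collagen VI, met the naming rule as higher in GAT. It had 78.4, 131, 113 and 97.9 normalised CPM in GAT and 1.67, 0.533 and 0.513 in SAT (log2 fold change 6.82, SE 0.485, adjusted p = 0.00294). The groups lay far apart, and the call held whichever library was left out. Cxcl14, a chemokine of skin, was lower in GAT, with 8.37, 10.2, 14.6 and 7.51 normalised CPM in GAT and 83.0, 94.5 and 82.3 in SAT. The log2 fold change of Cxcl14 was -3.09 (SE 0.225, adjusted p = 0.00294), also in every fit that left out 1 library. Of the 27 genes called in all of these fits, further ones named after their values were seen were Mgam (log2 fold change 5.08), Clec4d (2.96) and Cd33 (1.11), higher in GAT. Likewise named, Dpt (-2.12), Vat1l (-4.29), Gjc3 (-5.07), Net1 (-1.5), Optn (-0.82) and Sfxn5 (-0.83) were lower in GAT. Dpt, which encodes the matrix protein dermatopontin, had 292, 234, 282 and 202 normalised CPM in GAT and 961, 998 and 1340 in SAT. Cpn2 and Mlip also met the naming rule, with SAT values of 1.39, 25.9 and 0.890 for Cpn2 and 1.11, 35.2 and 1.30 for Mlip, and GAT values of at most 0.184. Mlip is a muscle-enriched gene, and for both the SAT LR value was far above the other SAT libraries, where the part of muscle was not tested either. The adjusted p of both was 0.0275, and it reached 0.0914 for Cpn2 and 0.0898 for Mlip without GAT LR, GAT no, GAT R or SAT no, and for Mlip also without GAT L.

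Thermogenic adipocyte genes were lower in GAT. Of 15 tested, 0 were higher and 7 were lower, with a median log2 fold change of -1.98, or -0.86 without SAT LR, where 6 were lower. The 17 genes found in the files summed to 185, 165, 165 and 177 CPM in GAT and 282, 1228 and 355 CPM in SAT, with SAT LR the highest. Ucp1, the uncoupling protein of brown and beige adipocytes, had 0.184, 0.0998, 0.136 and 0.174 normalised CPM in GAT and 0.682, 556 and 3.13 in SAT. Its log2 fold change was -10.26 (SE 2.6, adjusted p = 0.0441) with all libraries and -3.65 without SAT LR, and the call was lost without any GAT library or without SAT no (adjusted p up to 0.128). Cidea, a lipid droplet protein of thermogenic adipocytes, had 1.44, 1.07, 1.87 and 1.17 normalised CPM in GAT and 11.5, 267 and 33.4 in SAT. SAT LR was again the highest, and the log2 fold change was -6.23 (SE 1.14, adjusted p = 0.0226) with it and -4.01 without it. Kcnk3, a potassium channel of thermogenic adipocytes, had 70.5, 71.7, 67.3 and 76.3 normalised CPM in GAT and 125, 130 and 135 in SAT. Its log2 fold change of -0.86 (SE 0.0728, adjusted p = 0.00559) was the same without SAT LR, and it was called whichever library was left out. Prdm16, a transcriptional regulator of brown and beige fat, had 15.5, 11.3, 9.96 and 13.5 normalised CPM in GAT and 28.8, 31.0 and 41.0 in SAT (log2 fold change -1.42, SE 0.185, adjusted p = 0.013). Plin5, a perilipin of oxidative cells, had 7.01, 9.74, 11.2 and 10.2 normalised CPM in GAT and 23.7, 129 and 42.8 in SAT (log2 fold change -2.77, SE 0.535, adjusted p = 0.0228). Prdm16 lost its call without GAT LR or SAT no, and Cidea and Plin5 also without GAT no or GAT R (adjusted p up to 0.0795). SAT LR also held the skeletal muscle transcripts, and their part in its thermogenic values was not tested. The sums of SAT 2R and SAT no still lay above those of every GAT library. The list count was 1 without GAT LR or SAT no, 2 without GAT no or GAT R, 5 without GAT L and 9 without SAT 2R.

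**Figure D3:**
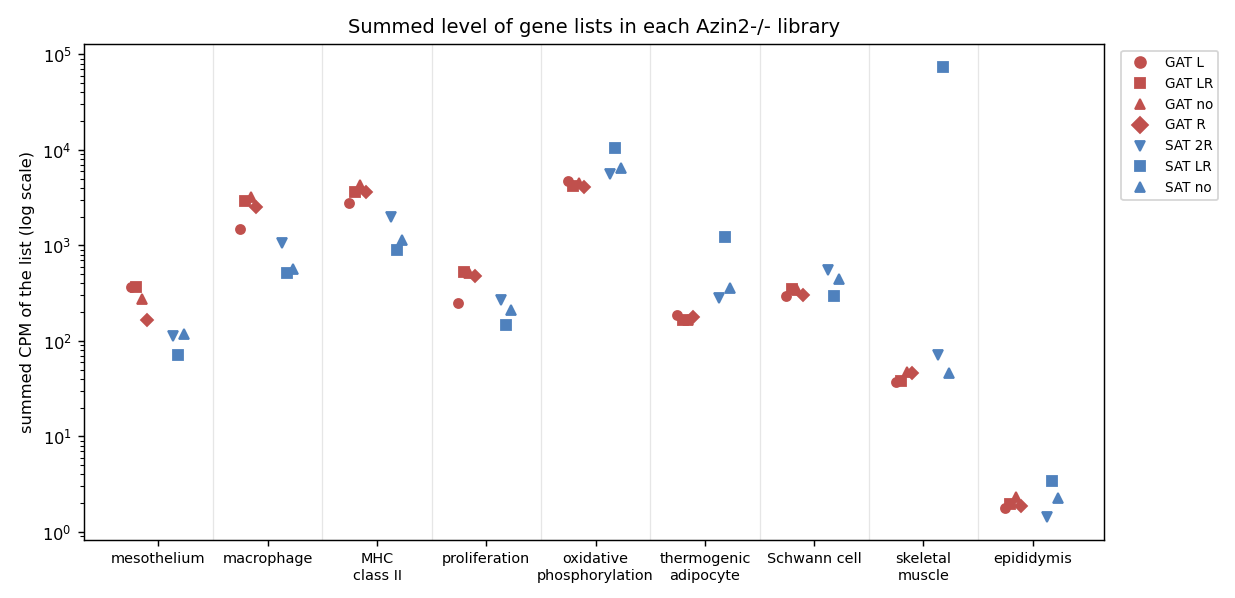
Summed CPM (log scale) of the genes of 9 lists in each Azin2-/- library, with GAT left of SAT and 1 symbol per library. Mesothelial and macrophage sums lay higher in every GAT library, oxidative phosphorylation and thermogenic sums lay lower, and SAT LR held 74740 CPM of skeletal muscle genes, against at most 71.77 CPM in any other library.

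Genes of fuel oxidation were lower in GAT as groups. Of 20 fatty acid oxidation genes, 13 were lower and 0 higher, with a median log2 fold change of -0.98 (-0.67 without SAT LR, where 13 were also lower). Cpt2, the inner-membrane carnitine palmitoyltransferase, had 94.8, 91.8, 107 and 90.7 normalised CPM in GAT and 173, 280 and 217 in SAT (log2 fold change -1.22, SE 0.161, adjusted p = 0.0132). Acads (log2 fold change -0.87, adjusted p = 0.0164), Hadh (-1.0, adjusted p = 0.0185) and Decr1 (-0.81, adjusted p = 0.0174), enzymes of the mitochondrial pathway, were lower too, and no GAT library overlapped with SAT. In oxidative phosphorylation, all 22 tested genes had every GAT library below every SAT library, 11 were called lower and 0 higher, and the median was -0.94. Without SAT LR 19 were lower and the median was -0.51. SAT LR, the library with muscle transcripts, was the highest for Cpt2, Acads, Hadh, Decr1, Atp5b and Cox4i1, and the part of that tissue in the 2 lists was not tested. Atp5b, the beta subunit of ATP synthase, had 1070, 990, 1030 and 989 normalised CPM in GAT and 1430, 3150 and 1660 in SAT (log2 fold change -1.03, SE 0.263, adjusted p = 0.0418). Cox4i1, a subunit of cytochrome c oxidase, had 352, 290, 345 and 273 normalised CPM in GAT and 450, 749 and 494 in SAT (log2 fold change -0.84, SE 0.196, adjusted p = 0.033). Breakdown of branched-chain amino acids showed 11 of 17 genes lower in GAT, 0 higher, and a median of -0.66. Without SAT LR 10 were lower and the median was -0.51. SAT LR was the highest library for Auh and Bckdha of this list too, and the part of muscle in it was not tested. Auh, a hydratase of leucine breakdown, had 54.8, 52.4, 58.3 and 56.9 normalised CPM in GAT and 82.0, 93.0 and 85.1 in SAT (log2 fold change -0.64, SE 0.0754, adjusted p = 0.0116). Mccc1 (-0.93, adjusted p = 0.0132) and Mccc2 (-1.03, adjusted p = 0.0157), the subunits of methylcrotonyl-CoA carboxylase, and Bckdha (-0.97, adjusted p = 0.0231), of the branched-chain ketoacid dehydrogenase, were lower as well. The counts of all 3 lists rested on several libraries. Without GAT LR or SAT no none of their genes was called, and without GAT no or GAT R the counts were 1 for fatty acid oxidation, 0 for oxidative phosphorylation and 2 for branched-chain amino acids. Without SAT 2R they were 17, 22 and 17, and without GAT L 11, 3 and 16. The adjusted p of the genes named here was at most 0.119 without 1 library.

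Lists of adipocyte identity, insulin action and lipid handling had genes called lower in GAT and none called higher. Of 20 adipocyte genes, 9 were lower and 0 higher, with a median log2 fold change of -0.54. Cebpa, a transcription factor of adipocyte differentiation, had 722, 580, 669 and 574 normalised CPM in GAT and 965, 1140 and 1160 in SAT (log2 fold change -0.77, SE 0.13, adjusted p = 0.0189). Of 17 genes of insulin signalling and glucose uptake, 8 were lower and 0 higher, with a median of -0.68. Pik3r1, the regulatory subunit of phosphoinositide 3-kinase, had 125, 129, 145 and 128 normalised CPM in GAT and 250, 257 and 228 in SAT (log2 fold change -0.89, SE 0.088, adjusted p = 0.00918). Only the removal of GAT LR ended that call (adjusted p = 0.0519). Grb14, an adaptor that inhibits the insulin receptor, had 21.0, 23.8, 39.6 and 18.3 normalised CPM in GAT and 94.7, 68.2 and 153 in SAT (log2 fold change -2.03, SE 0.344, adjusted p = 0.0189). Trarg1, a partner of the glucose transporter GLUT4 (-0.86), and Akt2, a kinase of insulin signalling (-0.75), were also lower. Of 24 genes of lipolysis and lipid droplets, 11 were lower and 0 higher (median -0.53), among them Pnpla2, the adipose triglyceride lipase (-0.74), Adora1, an adenosine receptor that restrains lipolysis (-0.72), and Fitm2, a droplet-forming protein (-0.53). Of 16 genes of triglyceride synthesis 4 were lower and 0 higher (median -0.48), and Acsl1, an acyl-CoA synthetase, had 1360, 1660, 1520 and 1520 normalised CPM in GAT and 2870, 2490 and 3480 in SAT. Agpat2 (-0.95) and Gpd1 (-0.91), which supply phosphatidic acid and glycerol phosphate, were lower as well. Apart from Pik3r1, the calls named in this paragraph were lost without GAT LR, GAT R or SAT no, and mostly also without GAT no (adjusted p up to 0.0795). Without GAT LR none of these 4 lists held a call, and without SAT no 1 insulin gene did. Without GAT no the adipocyte, insulin, lipolysis and triglyceride lists had 0, 3, 1 and 1 lower genes, and without GAT R 0, 1, 0 and 0. The sums of the adipocyte list (45260 to 60370 CPM in GAT and 45660 to 70920 CPM in SAT), the insulin list (4816 to 5954 and 5420 to 7300) and the lipolysis list (15220 to 17490 and 15650 to 23640) overlapped between depots, and that of the triglyceride list did not (8286 to 9741 and 11120 to 14910). The triglyceride list had 9 lower without SAT LR, and 6 lower and 1 higher without GAT L or SAT 2R.

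Calls in lists of fatty acid synthesis, cholesterol and secreted factors went both ways or changed with single libraries. Of 17 fatty acid synthesis genes 1 was higher and 2 lower (median -0.25). The number lower was 4 without SAT LR (median -0.16 over the same 17 genes) or without SAT 2R. Srebf1, the lipogenic regulator, was lower by 0.65 on the log2 scale (adjusted p = 0.0199). None of 21 cholesterol synthesis genes was called with all libraries (edgeR, median 0.10), but 3 were higher without SAT 2R, 2 were higher without GAT L, and 2 were lower without SAT LR (median -0.03). Among 26 adipokines and related secreted factors 3 were higher and 2 lower (median 0.15), near the shares over all tested genes (9.13% and 6.04%). These counts were 1 and 4 without SAT LR (median 0.04), 3 and 6 without GAT L, 5 and 2 without SAT 2R, and 0 without any of the other 4 libraries. Lep, the adipocyte hormone leptin, had 3810, 4980, 3960 and 5480 normalised CPM in GAT and 5090, 2620 and 3730 in SAT, and the groups overlapped (log2 fold change 0.26, adjusted p = 0.495). Agt, which encodes angiotensinogen, had 176, 57.8, 59.7 and 67.2 normalised CPM in GAT and 20.6, 8.64 and 3.75 in SAT (log2 fold change 3.03, SE 0.699, adjusted p = 0.033). Nrg4, a secreted ligand of brown fat, had 31.2, 22.5, 31.5 and 24.9 normalised CPM in GAT and 49.2, 103 and 84.9 in SAT (log2 fold change -1.52, SE 0.248, adjusted p = 0.0185). Of 13 fat expansion genes 1 was higher and 1 lower, and 3 were lower without SAT LR or GAT L. These were Fgf1, a growth factor needed for visceral fat remodelling (log2 fold change 0.69), and Vldlr, the very low density lipoprotein receptor (-0.86). These calls were lost without GAT LR, GAT no, GAT R or SAT no, and that of Agt also without SAT LR (adjusted p up to 0.106).

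Macrophage genes were higher in GAT. Of 20 tested, 18 were higher and 0 lower, with a median log2 fold change of 1.53 (1.46 without SAT LR, where 11 were higher). The list summed to 1483, 2944, 3220 and 2520 CPM in GAT and 1056, 519 and 564 CPM in SAT. GAT L was the lowest GAT library and SAT 2R the highest SAT library, and the sums did not overlap. Adgre1, the macrophage surface protein F4/80, had 115, 324, 346 and 279 normalised CPM in GAT and 75.5, 37.8 and 29.5 in SAT (log2 fold change 2.48, SE 0.48, adjusted p = 0.0229). Csf1r, the receptor for the macrophage growth factor CSF1, had 228, 419, 432 and 386 normalised CPM in GAT and 151, 95.9 and 83.9 in SAT (log2 fold change 1.73, SE 0.294, adjusted p = 0.0189). Mrc1, the mannose receptor, and Cx3cr1, the fractalkine receptor, were higher by 1.38 and 1.78 on the log2 scale. Of 17 genes of lipid-associated macrophages, 9 were higher and 0 lower (median 1.56). Gpnmb, a glycoprotein of lysosome-rich macrophages, had 391, 1490, 1410 and 912 normalised CPM in GAT and 167, 92.0 and 52.3 in SAT (log2 fold change 3.34, SE 0.598, adjusted p = 0.0202). Mmp12, macrophage elastase, had 271, 648, 674 and 456 normalised CPM in GAT and 84.4, 57.9 and 31.3 in SAT (log2 fold change 3.15, SE 0.455, adjusted p = 0.0157). Itgax, the integrin CD11c (2.56), and Spp1, osteopontin (2.49), were higher too. The sum of the lipid-associated list overlapped between depots, at 17980 to 21220 CPM in GAT and 8724 to 18660 CPM in SAT. Without GAT LR, GAT no, GAT R or SAT no, none of the 20 macrophage genes was called, and of the lipid-associated genes at most 1 was. Without GAT L or SAT 2R 17 macrophage genes were called in each case, and 11 and 13 lipid-associated genes. Without SAT LR 11 macrophage genes were higher, and 4 lipid-associated genes were higher and 1 lower. Removing 1 library raised the adjusted p of the genes named here to at most 0.0798.

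Other immune lists had lower medians. Of 14 genes of MHC class II presentation, 11 were higher in GAT and 0 lower (median 1.08), and the list summed to 2791 to 4308 CPM in GAT and 903 to 1977 CPM in SAT. Ciita, the master activator of these genes, had 24.1, 33.2, 36.7 and 39.8 normalised CPM in GAT and 14.9, 9.02 and 8.39 in SAT (log2 fold change 1.63, SE 0.258, adjusted p = 0.0176). Ctss, a protease of antigen processing, and Cd74, the invariant chain, were higher by 2.51 and 1.18. Of 30 chemokines and cytokines 6 were higher and 2 lower (median 0.85). The lower ones were Cxcl14 and Cxcl9, the interferon-induced chemokine (log2 fold change -1.06), and Cxcl16 (1.24) and Ccl22 (1.15), chemokines of macrophages and dendritic cells, were among the higher ones. Ccl2, the monocyte chemoattractant, had 31.6, 64.8, 51.9 and 64.4 normalised CPM in GAT and 32.1, 8.91 and 8.77 in SAT. GAT L and SAT 2R overlapped for Ccl2, and it was not called (log2 fold change 1.68, adjusted p = 0.0689). Of 24 complement and coagulation genes 9 were higher and 0 lower, with a median of 0.46, or 0.14 over the same genes without SAT LR. C3, the central complement protein, was higher by 1.75 (adjusted p = 0.0231). Further leukocyte lists were those of dendritic cell (2 higher and 1 lower of 14), T and NK cell (2 higher of 20, Il7r and Foxp3), B cell (1 higher of 15, Cd22), neutrophil (2 higher of 5) and mast cell genes (0 of 10). Of 18 interferon response genes, 1 was lower (Cmpk2, -0.60). Over all tested genes, 9.13% were higher and 6.04% lower. Apart from Cxcl14, the calls of genes named here were lost without GAT LR, GAT no, GAT R or SAT no (adjusted p up to 0.0902), and the MHC class II count was 0 without any of GAT LR, GAT no, GAT R and SAT no and 7 without SAT LR. The complement count was 1 without GAT LR, GAT R or SAT no, 2 without GAT no, and 4 higher and 1 lower without SAT LR. Higher chemokine genes numbered 0 without GAT LR, GAT R or SAT no, 1 without GAT no, 2 without SAT LR, 9 without GAT L and 11 without SAT 2R. Higher dendritic cell genes numbered 7 without SAT 2R, and lower interferon genes 5 without SAT LR.

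Proliferation genes had a median log2 fold change of 1.11, with 5 of 25 higher in GAT and 0 lower. They summed to 251, 531, 509 and 479 CPM in GAT and 271, 146 and 211 CPM in SAT, so that GAT L overlapped with SAT. GAT L was also the lowest GAT library for the macrophage list. Bub1b, a mitotic checkpoint kinase, had 7.01, 15.2, 13.5 and 14.2 normalised CPM in GAT and 5.96, 2.44 and 4.70 in SAT (log2 fold change 1.51, SE 0.372, adjusted p = 0.0379). Pcna, the replication clamp, was higher by 0.84 (adjusted p = 0.0403), and Mcm3 and Mcm6, helicase subunits, by 0.95 and 1.09. Without GAT L 17 of the 25 were called and without SAT 2R 7, while without any other library 0 were (adjusted p of the 4 named genes up to 0.125). Of 21 p53 targets and cell cycle inhibitors, 4 were higher and 1 lower (median 0.19), where 9.13% of all tested genes were higher and 6.04% lower. Cdkn1a, the cell cycle inhibitor p21, had 108, 154, 137 and 152 normalised CPM in GAT and 110, 68.3 and 79.8 in SAT and was not called (log2 fold change 0.68, adjusted p = 0.053). No p53 list gene was called without GAT LR, GAT no, GAT R or SAT no.

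With all 7 libraries, stromal lists held more genes called higher than lower in GAT, as did all tested genes (9.13% higher and 6.04% lower). Of 30 collagen and matrix genes 8 were higher and 0 lower (median 0.24). Without SAT LR 4 were higher and 2 lower, and the median turned to -0.04. Fn1, which encodes fibronectin, had 803, 956, 999 and 822 normalised CPM in GAT and 336, 240 and 200 in SAT (log2 fold change 1.79, SE 0.2, adjusted p = 0.0106). Col14a1, a fibril-associated collagen, had 88.5, 121, 94.7 and 92.7 normalised CPM in GAT and 39.6, 27.7 and 22.1 in SAT (log2 fold change 1.74, SE 0.217, adjusted p = 0.0127). Fbn1, fibrillin of microfibrils, and Thbs1, thrombospondin, were each higher by 1.40. Of 24 matrix proteases and inhibitors 6 were higher and 0 lower (median 0.30), among them Plau, the urokinase protease (1.5), and Timp2, a metalloprotease inhibitor (1.13). In the Wnt pathway 7 of 32 genes were higher and 1 lower (median 0.17). Sfrp2, a secreted Wnt modulator, had 27.7, 31.8, 23.3 and 35.2 normalised CPM in GAT and 8.71, 8.52 and 5.10 in SAT (log2 fold change 1.99, SE 0.233, adjusted p = 0.0116). Rspo1, a Wnt-enhancing ligand that is also on the mesothelium list, had 22.7, 14.7, 10.0 and 5.73 normalised CPM in GAT and 0.909, 0.419 and 0.621 in SAT (log2 fold change 4.32, SE 0.56, adjusted p = 0.013). Like other mesothelial genes, Rspo1 was lowest in GAT R among GAT libraries. Of 41 genes of the TGF-beta, BMP and activin pathway 7 were higher and 2 lower (median 0.24), with Gdf10, a ligand of the family, higher by 1.42, Id2, a target gene, higher by 1.19, and Smad6, an inhibitor, lower by 0.56. Of 21 progenitor and fibroblast genes 5 were higher and 0 lower (median 0.24). Sfrp2 lost its call without GAT LR (adjusted p = 0.0519), and the other genes named here without GAT LR or SAT no. Thbs1 lost it also without GAT no, Gdf10 also without GAT R, and Timp2 and Smad6 also without either (adjusted p up to 0.081). Without GAT LR none of these lists held a call, and without SAT no at most 1 gene of each did. Without GAT no the matrix, protease, Wnt, TGF-beta and progenitor lists had 3, 1, 4, 3 and 2 higher genes, and without GAT R 4, 1, 4, 1 and 1. Without SAT 2R 8 progenitor genes were higher, and without SAT LR 3 were higher and 1 lower.

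**Figure D4:**
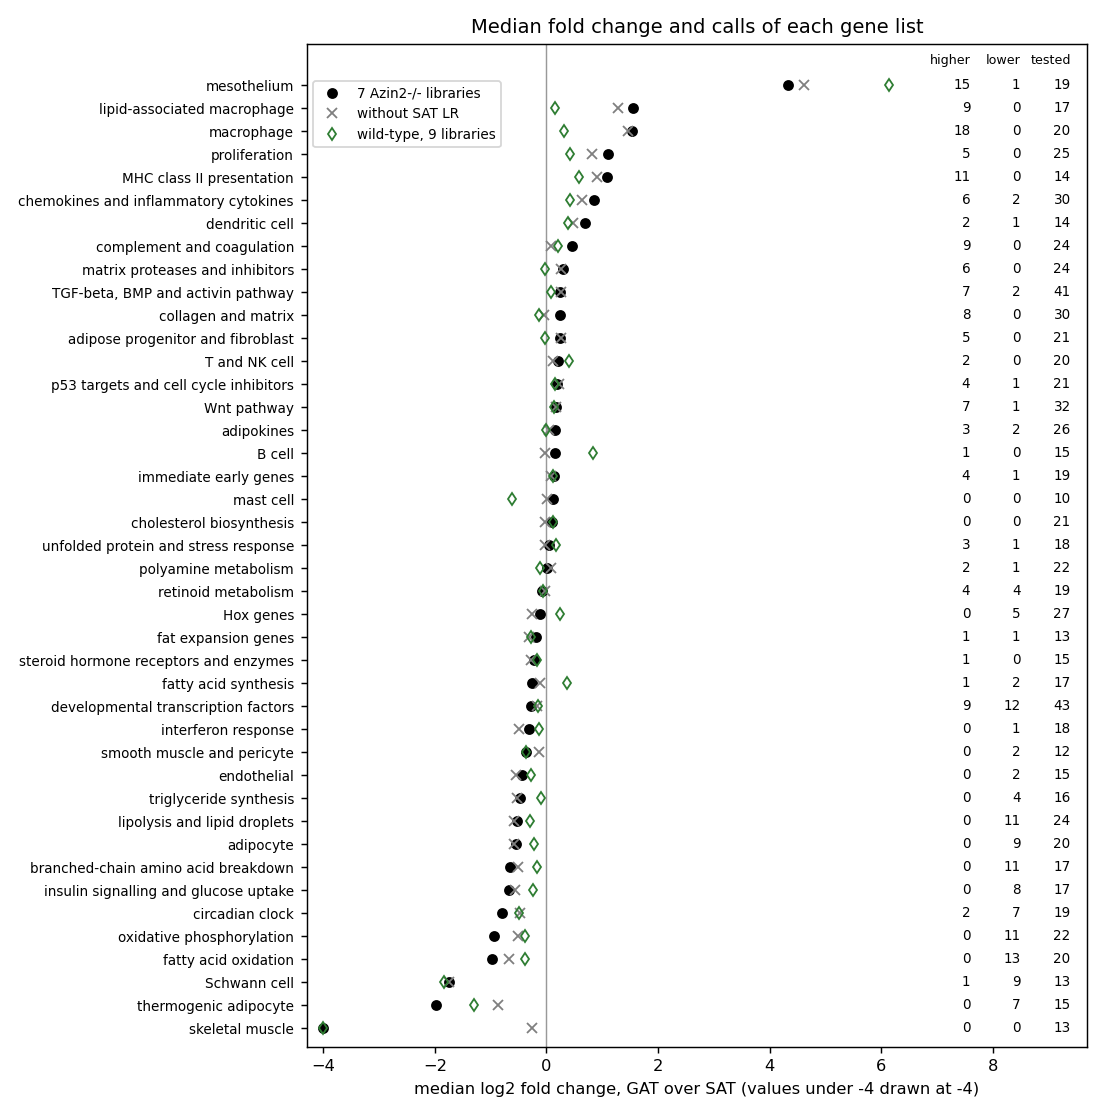
Median log2 fold change (GAT over SAT) of the 42 gene lists with at least 10 tested members, for the 7 Azin2-/- libraries (filled points), the same without SAT LR (crosses) and the wild-type libraries (diamonds), with the numbers of genes called higher and lower in Azin2-/- GAT and tested at the right. Medians ran from 4.33 for mesothelium to -1.98 for thermogenic adipocyte genes and -9.82 for skeletal muscle, which was -0.25 without SAT LR. Each median is over the list genes tested in its own fit.

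Retinoid metabolism had calls in both directions, 4 of 19 genes higher in GAT and 4 lower (median -0.08). Aldh1a2 (ENSMUSG00000013584, chr9:71215789-71296243), a retinaldehyde dehydrogenase that makes retinoic acid and is also on the mesothelium list, had 25.5, 44.6, 33.7 and 33.9 normalised CPM in GAT and 7.98, 5.75 and 4.34 in SAT. Its log2 fold change of 2.51 (SE 0.267, adjusted p = 0.0106) was called whichever library was left out. The alcohol dehydrogenase Adh7 had 0.709, 0.574, 0.163 and 0.217 normalised CPM in GAT and 3.81, 1.56 and 2.89 in SAT (log2 fold change -2.73, SE 0.546, adjusted p = 0.0241), and Adh1, an enzyme of the same family, was lower by 0.78 (adjusted p = 0.0199). Among 15 steroid receptors and enzymes the 1 call was Star, the cholesterol transporter of steroid synthesis, higher by 1.39 (adjusted p = 0.0267). Over all tested genes 9.13% were higher. The calls of Adh7, Adh1 and Star were lost without GAT LR, GAT no, GAT R or SAT no (adjusted p up to 0.0865). The retinoid list had 1 gene called without GAT LR or SAT no, 2 without GAT no or GAT R, and all of these were higher.

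Schwann cell genes, which mark peripheral nerve, were lower in GAT, with 9 of 13 lower, 1 higher and a median log2 fold change of -1.75, the same without SAT LR. Sox10, the transcription factor of the Schwann lineage, had 0.289, 0.175, 0.0814 and 0.282 normalised CPM in GAT and 2.68, 2.66 and 2.75 in SAT (log2 fold change -3.67, SE 0.368, adjusted p = 0.00995). Cdh19, a Schwann cell cadherin, had 0.735, 0.749, 0.244 and 0.695 normalised CPM in GAT and 4.70, 5.29 and 4.72 in SAT (log2 fold change -3.00, SE 0.354, adjusted p = 0.0116). For both genes every SAT library lay above every GAT library. The 1 gene higher in GAT was Egr2, named after its values were seen, a zinc finger factor of myelination that leukocytes express as well (log2 fold change 2.03, adjusted p = 0.0474, and up to 0.127 without 1 library). The sum of the list overlapped between depots, at 294 to 346 CPM in GAT and 550, 294 and 441 CPM in SAT. Sox10 lost its call without GAT LR (adjusted p = 0.0519), and Cdh19 also without SAT no (adjusted p up to 0.0577). The count of lower genes was 1 without GAT LR, 2 without SAT no, 3 without GAT R and 4 without GAT no.

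In vascular lists, 2 of 15 endothelial genes were lower in GAT (median -0.43) and 10 were lower without SAT LR (median -0.55). Over all tested genes 9.13% were higher and 6.04% lower, or 7.25% and 7.46% without SAT LR. The small counts in this paragraph are to be read beside these shares. The 2 were Flt1, a receptor for vascular endothelial growth factor (-0.41, adjusted p = 0.0268), and Gpihbp1, which anchors lipoprotein lipase to capillaries (-0.79, adjusted p = 0.0231). Of 8 lymphatic endothelial genes 3 were higher (median 1.37). Pdpn, podoplanin of lymphatic endothelium and also of mesothelium, had 22.1, 31.9, 31.4 and 19.3 normalised CPM in GAT and 11.7, 6.43 and 6.42 in SAT (log2 fold change 1.67, SE 0.292, adjusted p = 0.0197). Ccl21a, a chemokine of lymphatics and lymph node stroma with near-identical copies, had 14.5, 23.1, 0.353 and 16 normalised CPM in GAT and 0.151, 0.647 and 0 in SAT, and GAT no overlapped with SAT. Of 12 smooth muscle and pericyte genes 2 were lower (median -0.37), and without SAT LR 1 was lower (median -0.13). The calls of Flt1, Gpihbp1, Pdpn and Ccl21a were lost without GAT LR or SAT no, among others (adjusted p up to 0.119). Among markers of other tissues, of 7 lymph node stroma genes 3 were higher and 1 lower, of 8 skin and mammary genes 2 were higher and 1 lower (0 without SAT LR), and of 13 skeletal muscle, 7 erythrocyte and 2 epididymis genes 0 were called (edgeR), although 11 skeletal muscle genes were lower without SAT 2R. Skin and mammary genes summed to 62.8, 36.4, 51.7 and 32 CPM in GAT and 38.5, 19.7 and 39.8 CPM in SAT, and Krt14, a keratin of basal epithelium, had 1.55, 1.97, 2.88 and 0.0869 normalised CPM in GAT and 0 reads in SAT. Against the floor of 3 counts Krt14 was at least 58.3-fold higher in GAT, with GAT R close to the SAT libraries (adjusted p = 0.0481). Chst4, a sulfotransferase on the lymph node list, had 2.78, 2.67, 2.28 and 0.782 normalised CPM in GAT and 0 reads in SAT, and was at least 78.3-fold higher in GAT (adjusted p = 0.0165). Both were lost without GAT LR, GAT no or SAT no, and Krt14 also without GAT L, SAT 2R or SAT LR (adjusted p up to 0.0979).

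Circadian clock genes had 2 of 19 higher in GAT and 7 lower, with a median of -0.79 (-0.47 without SAT LR). The lower ones included Per3 (log2 fold change -0.96), Dbp (-1.17) and Cry2 (-0.59), genes of the negative limb or its outputs, and Npas2, of the positive limb, was higher (1.15). The labels give no time of day of tissue collection. Polyamine metabolism, the pathway of Azin2, had 2 of 22 genes higher and 1 lower, with a median of 0.01. Its counts lay near the shares over all tested genes (9.13% higher and 6.04% lower). Sat1, the acetyltransferase of polyamine breakdown, had 102, 129, 143 and 124 normalised CPM in GAT and 84.0, 56.7 and 67.3 in SAT (log2 fold change 0.84, SE 0.165, adjusted p = 0.0231). Atp13a2, a lysosomal polyamine exporter, was higher by 0.97 and Paox, a polyamine oxidase, lower by 0.54. Odc1, ornithine decarboxylase, had 87.9, 95.5, 91.9 and 91.5 normalised CPM in GAT and 91.5, 152 and 92.5 in SAT (log2 fold change -0.29, adjusted p = 0.295). Of 18 genes of the unfolded protein and integrated stress responses 3 were higher and 1 lower (median 0.05), and of 19 immediate early genes 4 were higher and 1 lower (median 0.13). Atf3, a stress-induced factor on both lists, had 41.8, 119, 159 and 86.3 normalised CPM in GAT and 30.9, 11.7 and 10.5 in SAT (log2 fold change 2.52, SE 0.57, adjusted p = 0.0305). The calls of the genes named here were lost without GAT LR, GAT no, GAT R or SAT no, and those of Atp13a2, Paox and Atf3 also without SAT LR (adjusted p up to 0.117). Without SAT 2R 12 clock genes were lower.

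The same comparison in wild-type littermates shares no library with the one above. There, 738 of 17030 genes were called, or 4.33%. Of the 16511 genes tested in both genotypes, 413 were called in the same direction in both, which is 16.5% of the Azin2-/- calls and 57.9% of the wild-type calls, and 0 were called in opposite directions. Among the Azin2-/- calls 94.8% had the same sign in wild-type, against 73.0% of all genes. Side by side, the log2 fold changes were 7.84 in Azin2-/- and 7.52 in wild-type for Tcf21, -4.02 and -3.76 for En1, and -3.67 and -3.70 for the Schwann cell gene Sox10. Wt1 had 6.77 in Azin2-/- and 9.7 in wild-type, a difference of -2.92 with an unadjusted p of 0.00979 that was not called after adjustment. In SAT, Wt1 had 7 reads in Azin2-/- and at most 0.059 normalised CPM in any wild-type library. Tcf21 had 2 reads and at most 0.084 normalised CPM there. The fold changes of both genes, and the difference for Wt1, therefore rest on few SAT reads and on the prior count. Macrophage genes had a median of 1.53 in Azin2-/-, with 18 of 20 called, and of 0.32 in wild-type, with 2 called. Fatty acid oxidation genes had medians of -0.98 and -0.38, with 13 and 1 called lower, and collagen and matrix genes had 8 higher in Azin2-/- GAT and 5 lower in wild-type GAT. These counts do not show that the depot difference depends on the genotype. The test of that difference (edgeR, interaction of depot and genotype over 18033 genes) called 0 genes, with a smallest adjusted p of 0.312, while 2016 genes, or 11.2%, had an unadjusted p under 0.05. DESeq2 called 158 genes and limma-voom with sample weights 2718. Leaving out GAT L of Azin2-/- gave 107 calls with edgeR, and SAT 2R of Azin2-/- and SAT LR of wild-type gave 1 and 2. In the wild-type groups, SAT LR summed to 66500 CPM of skeletal muscle genes and GAT no to 5104 CPM of epididymis genes, against at most 219 and 4.96 CPM in the others, and without both libraries 1136 wild-type genes were called. Without SAT LR of both genotypes the edgeR interaction again called 0 genes, and without wild-type GAT no it also called 0. The part of skeletal muscle and epididymis in the interaction of single genes was not tested.

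**Figure D5:**
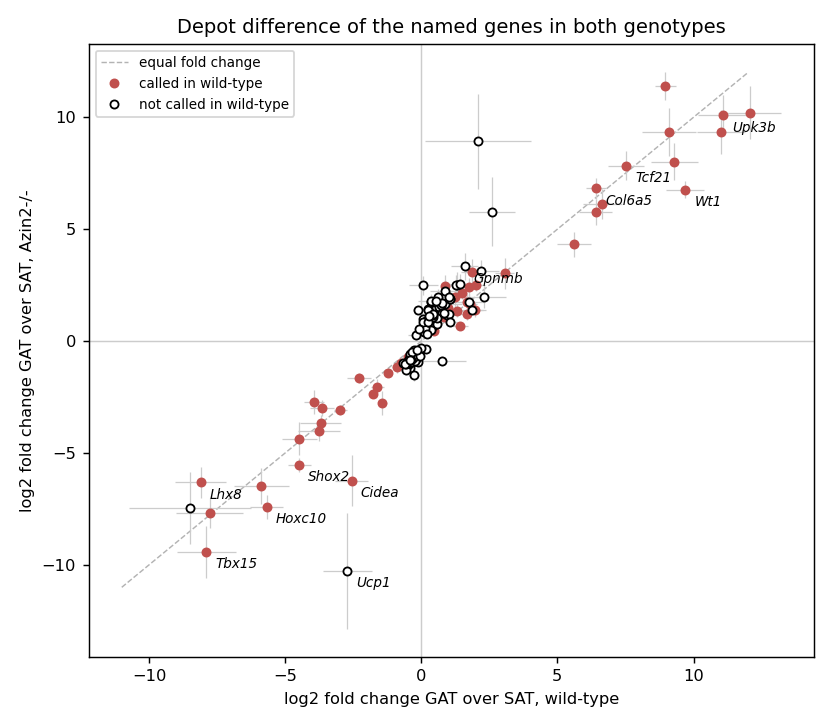
Log2 fold change (GAT over SAT, ± SE) of 152 named genes in Azin2-/- (vertical axis) and in wild-type (horizontal axis), with red points for the 52 genes called in wild-type and a dashed line at equal values. Many points lay off the line. Among them were Ucp1 (-10.26 in Azin2-/- and -2.71 in wild-type), Cidea (-6.23 and -2.56) and Adgre1 (2.48 and 0.88). Most genes shown were named for their fold or p in Azin2-/-, a choice that favours larger values there. SAT LR was far above the other Azin2-/- SAT libraries for Ucp1 and Cidea, and without it Cidea had -4.01.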

How the data were processed

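RNA was measured by RNA-seq of whole fat. RNA was taken with NucleoSpin columns and libraries were made with a stranded total RNA kit, per the labels' protocols. The values the authors deposited are raw counts per gene and library. They were made with cutadapt, STAR and HTSeq 0.6.1p1 on GRCm38 (mm10), per the submitters' processing notes, and neither the annotation release nor the strand setting is stated there. Each table holds 49585 gene IDs, of which 49326 were named from GENCODE M21, and the other 259 hold 0.00928% of the counts of the 7 Azin2-/- libraries. Total counts were 31.96 to 44.79 megareads in Azin2-/- and 33.32 to 46.62 in wild-type.

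Groups follow the labels. Genes were kept by filterByExpr (minimum count 10, minimum total 15), scaled by TMM, and tested with edgeR 4.0.16 (quasi-likelihood F-test, R 4.3.3) on the 7 Azin2-/- libraries, with Benjamini-Hochberg adjustment over all tested genes and a threshold of 0.05. Wild-type libraries were fitted in the same way on their own, and the interaction of depot and genotype in all 16. DESeq2 1.42.0 and limma 3.58.1 were alternatives, beside other scalings and filters, a block for shared marks, and fits without single libraries. The edgeR test was run on simulated counts with known folds. No simulated library stood apart as SAT LR does, so that check does not cover such a library. A count of 0 was bounded by a floor of 3 counts (95% confidence), and ratios of 1 to 3 counts have exact counting intervals, which cover counting error only. Fitted fold changes of such genes depend on the prior count.

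The marks LR and no were not taken as pairs, since the labels do not say that a mark names an animal. Deviations of same-marked libraries from their group means correlated at -0.0312 and 0.0459. So few libraries cannot decide that question, because SAT LR also differs by its skeletal muscle RNA. The libraries and the 48 gene lists were chosen with earlier results of these data known, so list counts and medians are descriptions. Genes are named by rule: up to 10 per direction of largest fold among called, non-overlapping genes with an average log2 CPM of at least 1 that were also called without SAT LR; up to 4 called genes of smallest p per list; and 12 genes set by name. Any other gene was picked for its values, and is marked so where it appears. Some genes that met the rule are not reported here.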

Additional observations from a re-analysis of the deposited data

Results flagged for a closer look

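Of 154 named genes, 13 had 1 of the 4 GAT libraries far from the other 3 by Dixon's test. That test flags about 1 in 20 independent groups of normal values by chance. Most of these genes were named for their values in the same libraries, and genes of a library are not independent. That rate is therefore no baseline for the 13. All values are normalised CPM in Azin2-/- GAT, each beside the median of the 4 libraries. GAT L was the highest for Agt (176, median 63.5), Asns (40.6, median 27.6), Bckdha (134, median 103), Gpihbp1 (115, median 99.6) and Hoxa10 (0.761, median 0.095). GAT L was the lowest for Ccl22 (2.28, median 2.84), Gdf15 (1.99, median 5.37) and Mrc1 (130, median 210). GAT R was the highest for Cx3cr1 (8.58, median 4.9) and Hoxc10 (0.521, median 0.141). GAT no was the lowest for Cdh19 (0.244, median 0.715) and the highest for Sfrp4 (18.5, median 15.4), and GAT LR was the highest for Mmp23 (25.7, median 20.6). GAT L thus held 8 of the 13 values. Groups of 3 SAT libraries were not tested.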

How the results depend on the processing

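The 2549 calls between Azin2-/- GAT and SAT (1534 higher and 1015 lower in GAT) became 4387 (2399 and 1988) with DESeq2, 6631 (3403 and 3228) with limma-voom and sample quality weights, and 36 (17 and 19) with glmTreat for a fold of 2. Leaving out 1 library gave 36 to 3414 calls, 16 to 1873 higher and 17 to 1547 lower. Without the low-count filter 644 were lower, and with all 16 libraries in 1 fit 1593 were lower. Without GAT L and SAT LR together, chosen after seeing the data, 4917 were called (2569 and 2348). With the marks as a replicate block, 1099 (899 and 200) were called with a fixed term and 1478 (947 and 531) with a random effect, against 2249 by limma-voom without a block, also chosen after seeing the data. The 4 libraries with marks LR and no alone gave 1620 calls, 382 of them lower. Deviations of same-marked libraries from their group means correlated at -0.0312 and 0.0459, and those of the crossed pairs at -0.13 and -0.141. These values cannot decide whether a mark names an animal. The 738 wild-type calls became 490 without the filter, 1784 with DESeq2, 2454 with limma-voom, 296 to 909 without 1 library, and 1136 without GAT no and SAT LR, chosen after seeing the data. The 0 interaction calls became 158 with DESeq2, 2718 with limma-voom and 0 to 107 without 1 library. The difference in depth was 0.0592 to 4.1 megareads without 1 library. DESeq2 size factors and the removal of skeletal muscle genes before scaling kept every named gene's direction and side of the threshold. Over all settings and named genes, 2071 values kept both, 833 fell short of the threshold, 15 newly passed it and none reversed. The causes were not tested.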
